A study of Mus musculus with 52 samples.

Results

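The dentate gyrus of mice kept in environmental enrichment for 2 weeks (2wEE_DG, 5 libraries) was compared with the dentate gyrus of mice kept in a home cage for 2 weeks (2wHC_DG, 6 libraries). These are the 11 libraries, of 52 in the series, whose labels give the DG subregion and 2 weeks of housing. Other libraries used beside them come from the dentate gyrus after 10 weeks of enrichment (10wEE_DG, 8) or home cage (10wHC_DG, 6), and from the CA subregion after 2 weeks (2wEE_CA, 7, and 2wHC_CA, 6). CA libraries of 10 weeks (10wEE_CA, 8, and 10wHC_CA, 6) also enter the fits that give effects in CA and regional differences. All mice were of the strain C57B/6JRj and 20 weeks old, with no genotype or other treatment in the labels. Small RNA was sequenced from microdissected tissue, and the deposited values are read counts for 1900 mature miRNAs. The labels name a subregion and not a cell type, so each library mixes granule cells with glia, vessels and other cells of the piece dissected, and fewer cells of a type and less RNA per cell cannot be told apart in it. Whether a library stands for 1 animal is not in the labels, so p-values measure the spread between these libraries, which may in part be technical.

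Enriched housing offers mice objects, room and exercise that a standard cage lacks, and the dentate gyrus is the hippocampal region where granule cells receive cortical input and where new neurons form in adult mice. A miRNA is cut from a hairpin precursor whose 5p and 3p arms can each be loaded onto an Argonaute protein. The loaded arm pairs with messenger RNAs mainly through its seed, bases 2 to 8 from the 5′ end, and lowers their stability and translation. miR-132 and miR-212 come from 1 primary transcript that neuronal activity switches on through the transcription factor CREB, and miR-132 is known in rodent neurons for promoting growth of dendrites and spines.

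The sequences of the miRNAs that the results below turn on are given here, from RefSeq on GRCm38.p6, 5′ to 3′, with the seed in capitals. miR-132-3p and miR-212-3p have the same seed and are identical at 17 of 22 positions, whereas the 2 5p arms have seeds of their own. miR-125a-5p, miR-125b-5p and miR-351-5p share another seed, and miR-125a-5p and miR-125b-5p are identical at 15 of the first 22 positions.
miR-132-3p: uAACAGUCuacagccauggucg
miR-212-3p: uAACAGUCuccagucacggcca
miR-132-5p: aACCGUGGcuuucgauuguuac
miR-212-5p: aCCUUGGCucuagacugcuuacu
miR-125a-5p: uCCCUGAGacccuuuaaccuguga
miR-125b-5p: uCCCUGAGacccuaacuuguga
miR-351-5p: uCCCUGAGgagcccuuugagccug
miR-22-3p: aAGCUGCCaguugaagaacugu
miR-21a-5p: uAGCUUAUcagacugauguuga

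The hairpins of miR-212 and miR-132 lie in that order on the plus strand of chromosome 11, at chr11:75173388-75173478 and chr11:75173682-75173747 on mm10, with 203 bases between them. Both are in an intron of the non-coding transcript 1700016P03Rik. Their sequences are shown because 3 of the 4 arms they give carry the result, with the mature arms in capitals, the 5p arm before the 3p arm.
Mir212 hairpin: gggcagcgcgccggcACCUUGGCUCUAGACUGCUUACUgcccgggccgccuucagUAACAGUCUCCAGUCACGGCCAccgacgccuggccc
Mir132 hairpin: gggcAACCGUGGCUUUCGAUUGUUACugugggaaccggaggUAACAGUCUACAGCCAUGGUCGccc

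The 11 libraries held 1117213 to 3159957 miRNA counts, so that 3 counts, taken as the floor, were worth 0.93 to 2.87 CPM (counts scaled to a common library total, with TMM factors). Total, share of reads in miRNAs, share of reads aligned to several places and number of miRNAs with at least 10 counts did not differ beyond the spread. The share in miRNAs was 31.9 ± 1.11% in 2wEE_DG and 31.2 ± 1.31% in 2wHC_DG (SD, n = 5 and 6; exact two-sided permutation test, p = 0.377, adjusted over 4 quantities 0.926). Reads aligned to several places entered no count, so miRNAs made from several hairpins can stand too low. Among such miRNAs, miR-124-3p had 0 to 2 counts and miR-9-5p 7 to 31 in these libraries, whereas miR-92a-3p had 5641 to 14957 and miR-128-3p 26134 to 65751. The first principal component carried 29.6% of the variance and did not separate the groups. The second carried 17.4%, and library 6 of 2wHC_DG lay at -8.1 on it with the other 10 between -3.18 and 4.63. miR-187-3p, chosen with earlier results of these data known, was higher in the dentate gyrus than in CA. It was at 1024 to 1281 CPM in 2wEE_DG and 1003 to 1484 CPM in 2wHC_DG. In 2wEE_CA it was at 142 to 210 CPM and in 2wHC_CA at 196 to 288 CPM. These CPM are shares of each library total without TMM factors. Because of that choice they are no independent check of the dissection.

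Of 525 miRNAs tested, 3 rose with enrichment (0.571%), and all 3 come from the hairpins of miR-132 and miR-212. None of the 525 fell (0%). The test was edgeR's quasi-likelihood test on the 25 DG libraries with Benjamini-Hochberg adjustment over all 525, which stands behind every adjusted p of a single miRNA below. At an unadjusted p under 0.05, 13 were higher (2.48%) and 16 lower (3.05%), and DESeq2 called 1 lower at an adjusted p under 0.05, miR-125a-5p. Log2 fold changes were centred near 0, with a median of -0.01 and 252 of 525 above 0 (48%), and 263 lay within 0.1 of 0. The 85 miRNAs with a mean of at least 1000 CPM had a median standard error (SE) of 0.10 and log2 fold changes between -0.36 and 0.56.

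**Figure D1:**
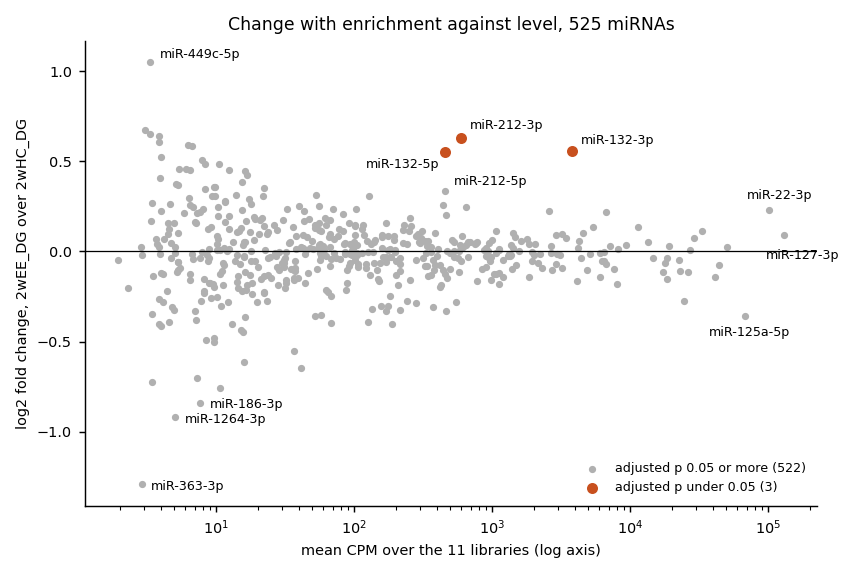
Log2 fold change of 2wEE_DG over 2wHC_DG (y axis) against mean CPM over the 11 libraries (log x axis) for the 525 miRNAs tested. The 3 with an adjusted p under 0.05, in orange, stand above the other miRNAs of their level, and scatter widens below about 10 CPM.

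miR-132-3p, the more abundant arm and the one best known in neurons, had 3214, 4498, 4501, 4829 and 5895 CPM in libraries 1 to 5 of 2wEE_DG, against a lowest of 2784, a median of 3084 and a highest of 3586 CPM in 2wHC_DG. Enriched libraries 2 to 5 lay above every home cage library, and enriched library 1 lay inside their range. The log2 fold change was 0.56 ± 0.10 (SE), or 1.47-fold, with an adjusted p of 0.00368. The lower-abundance partner arm, miR-132-5p, had 447, 533, 557, 540 and 688 CPM in 2wEE_DG, against 344, 369 and 422 CPM as the lowest, median and highest of 2wHC_DG. All 5 enriched libraries were above all 6 home cage libraries. Its log2 fold change was 0.55 ± 0.10, with an adjusted p of 0.00278, the smallest of the 525.

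miR-212-3p, which shares the seed of miR-132-3p, had 559, 706, 699, 702 and 1015 CPM in 2wEE_DG, against 373, 460 and 592 CPM (lowest, median, highest) in 2wHC_DG. Again enriched libraries 2 to 5 were above all home cage libraries and library 1 was within their range. The log2 fold change was 0.63 ± 0.13, with an adjusted p of 0.00492. miR-212-5p, the arm of that hairpin with a seed of its own, had 452, 592, 563, 433 and 530 CPM in 2wEE_DG, against 370, 396 and 476 CPM in 2wHC_DG. Enriched libraries 2, 3 and 5 were above all home cage libraries, and libraries 1 and 4 were not. Its log2 fold change of 0.34 ± 0.10 did not pass (adjusted p = 0.297), so that 3 of the 4 arms were called. Against the mean of the home cage groups at 2 and 10 weeks it was 0.44 and passed, with an adjusted p of 0.00515. That value takes in a difference between the home cage groups, -0.20 ± 0.10 (log2, 10wHC_DG over 2wHC_DG), which did not pass.

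**Figure D2:**
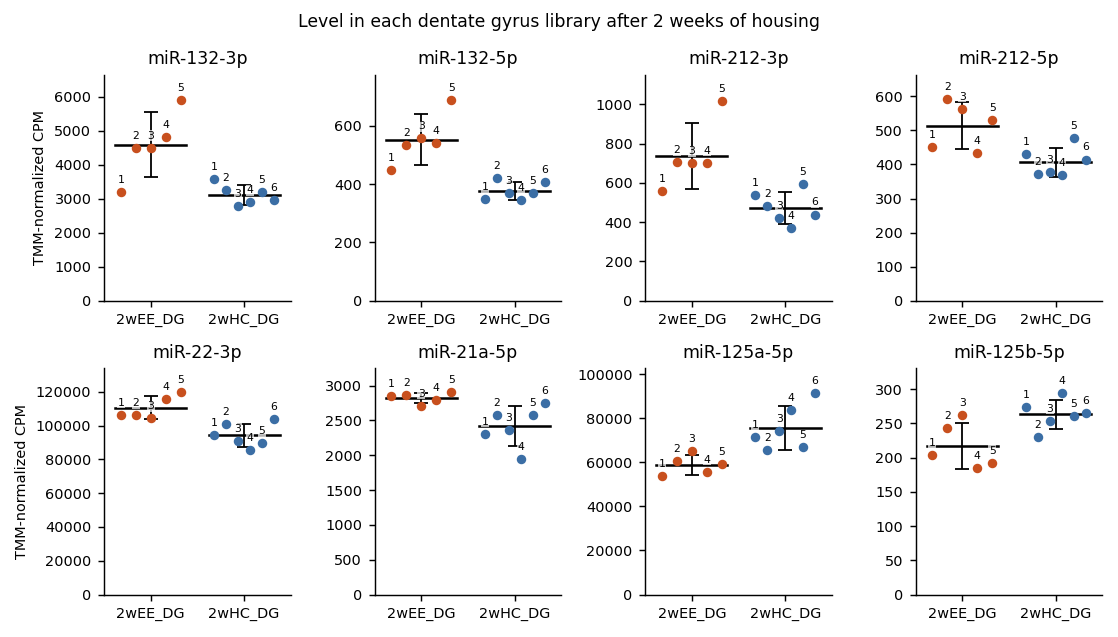
TMM-normalized CPM (y axes from 0) of 8 miRNAs in each library of 2wEE_DG (orange, left) and 2wHC_DG (blue, right), with library numbers, group means (wide bars) and SD (error bars). miR-132-5p and miR-22-3p in 2wEE_DG lie above, and miR-125a-5p below, every 2wHC_DG library, whereas the other 5 overlap between groups.

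These calls lean in part on the other DG libraries and on 1 enriched library. With the 11 libraries fitted alone, fold changes were almost the same (0.56 for miR-132-5p, 0.56 for miR-132-3p and 0.63 for miR-212-3p) but only miR-132-5p passed, at an adjusted p of 0.0305, with 0.0772 for miR-132-3p and 0.0983 for miR-212-3p. Enriched library 5, the highest in all 3 arms, was also the shallowest of the 11. Without it both arms of miR-132 passed, and miR-212-3p stood at 0.48 (log2) with an adjusted p of 0.0505. Without it in the 11-library fit none passed.

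Depth moved with the level of miR-132-3p among the enriched libraries: library 5 had 1117213 counts and the highest level, and library 1 had 2234466 counts and the lowest. Among home cage libraries, the shallowest, library 1 with 1199893 counts, had the highest level, 3586 CPM, and library 3, with 2292292 counts, had the lowest, 2784 CPM. The deepest of the 11, home cage library 5 with 3159957 counts, had 3204 CPM. With the log2 of the library total as a covariate, an alternative chosen after the values were seen, the log2 fold changes were 0.54 for miR-132-3p, 0.55 for miR-132-5p and 0.63 for miR-212-3p, with adjusted p of 0.00109, 0.00109 and 0.00488.

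**Figure D3:**
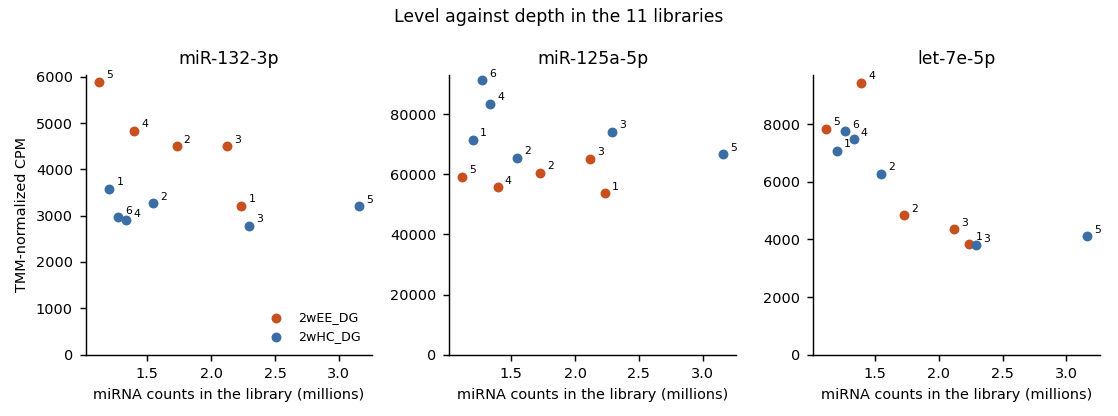
TMM-normalized CPM (y axes from 0) against the library's total miRNA count (x axes) for miR-132-3p, miR-125a-5p and let-7e-5p, with library numbers. For let-7e-5p, shallow libraries are high and deep ones low in both groups, from 9452 CPM in library 4 of 2wEE_DG to 3796 CPM in library 3 of 2wHC_DG.

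Counts were next summed over miRNAs that share a seed, since such miRNAs can pair with the same sites. This gave 456 features, 394 of them with a seed from RefSeq and 45 with at least 2 tested miRNAs. With the same edgeR test, 2 seed families rose (0.439%) and 1 fell (0.219%), and at an unadjusted p under 0.05 there were 11 higher (2.41%) and 13 lower (2.85%). AACAGUC, the seed common to the 3p arms of both hairpins, had 3788, 5148, 5274, 5469 and 6794 CPM in 2wEE_DG, against 3198, 3533 and 4186 CPM (lowest, median, highest) in 2wHC_DG. Enriched libraries 2 to 5 were above all home cage libraries. miR-132-3p supplied 86.3% of these counts, and the log2 fold change was 0.57 ± 0.10 with an edgeR adjusted p of 0.00168 over seed families. With the 11 libraries fitted alone it was 0.56 and did not pass (edgeR adjusted p = 0.0682). The other family that rose, ACCGUGG, is miR-132-5p alone, at 550 ± 82.5 CPM in 2wEE_DG and 374 ± 23.4 CPM in 2wHC_DG (SD, n = 5 and 6).

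The family that fell, CCCUGAG, is almost entirely miR-125a-5p, which supplied 98.98% of its counts. miR-125a-5p is one of the brain's abundant miRNAs and in mouse neurons is known to repress the mRNA of the postsynaptic scaffold PSD-95. The family had 54416, 60612, 66776, 55640 and 58975 CPM in 2wEE_DG, against 65030, 74494 and 86856 CPM (lowest, median, highest) in 2wHC_DG. Enriched library 3 was above the lowest home cage library, and the other 4 were below all 6. The log2 fold change was -0.35 ± 0.09 and the edgeR adjusted p 0.049. The call sat at the threshold: it was lost with DESeq2's size factors in edgeR (0.0593), with limma-voom (0.0623), with the 11 libraries fitted alone (0.19) and without any 1 of 8 of the 11 libraries. Against the mean of both home cage groups, at 2 and 10 weeks, the family's log2 fold change was -0.22 and did not pass (0.177).

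Taken alone, miR-125a-5p had 53674, 60636, 65202, 55699 and 59254 CPM in 2wEE_DG, against 65466, 72887 and 91392 CPM (lowest, median, highest) in 2wHC_DG. All 5 enriched libraries were below all 6 home cage libraries. It did not pass, with a log2 fold change of -0.36 ± 0.09 and an adjusted p of 0.0548, and it passed with DESeq2 (adjusted p = 0.0163) and among miRNAs with a single hairpin (edgeR adjusted p = 0.0271). The home cage reference matters here: in 10wHC_DG miR-125a-5p had 61664 ± 5488 CPM (SD, n = 6), between 53607 and 68200, a range that holds all 5 values of 2wEE_DG. Against the mean of both home cage groups its log2 fold change was -0.21 (adjusted p = 0.245). The 2 home cage groups also differed as libraries. Reads assigned to no feature were 5.07 to 6.34% in 10wHC_DG and 3.89 to 4.45% in 2wHC_DG. Reads in miRNAs were 22.5 to 30.0% in 10wHC_DG and 29.5 to 33.5% in 2wHC_DG. Housing time and library processing cannot be told apart in any value set against both home cage groups.

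miR-125a lies at chr17:17830812-17830879 in an exon of Spaca6, downstream of let-7e and miR-99b on the same strand. miR-99b-5p averaged 25025 ± 3148 CPM in 2wEE_DG and 27133 ± 4229 CPM in 2wHC_DG (SD, n = 5 and 6), and let-7e-5p 6065 ± 2451 CPM in 2wEE_DG and 6091 ± 1730 CPM in 2wHC_DG. Their log2 fold changes of -0.12 ± 0.10 and -0.01 ± 0.21 did not pass, nor did that of miR-125a-5p taken alone. Whether these neighbours moved otherwise than miR-125a-5p was not tested. miR-125b-5p, the seed-sharing miRNA from 2 other hairpins, had 203, 244, 262, 185 and 192 CPM in 2wEE_DG, against 230, 263 and 295 CPM in 2wHC_DG. Enriched libraries 1, 4 and 5 were below all home cage libraries. Its log2 fold change of -0.27 ± 0.10 did not pass either (adjusted p = 0.505).

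Groups that did not overlap were as rare as calls. In 2wEE_DG 2 miRNAs were above all 2wHC_DG libraries (0.381% of 525), miR-132-5p and miR-22-3p, and 2 were below all of them (0.381%), miR-125a-5p and miR-363-3p. miR-22-3p, the second most abundant miRNA of the 11 libraries, comes from an exon of the non-coding gene Mir22hg, which overlaps Tlcd2, at chr11:75463716-75463810, which is 289968 bases downstream of the miR-132 hairpin. It had 106524, 106230, 104399, 115641 and 119999 CPM in 2wEE_DG, against 85798, 92643 and 103985 CPM (lowest, median, highest) in 2wHC_DG. The gap between the lowest enriched and the highest home cage library was narrow. The log2 fold change was 0.23 ± 0.08, with an adjusted p of 0.505, and against the mean of both home cage groups it was 0.31 with an adjusted p of 0.012. The latter takes in a difference between the home cage groups, -0.16 ± 0.08 (log2, 10wHC_DG over 2wHC_DG), which did not pass.

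miR-363-3p, from the miR-106a-363 cluster on the X chromosome, was barely measured, with 1 to 11 counts a library. It had 1.32, 2.33, 0.465, 2.24 and 1.91 CPM in 2wEE_DG, against 2.64, 3.94 and 5.50 CPM in 2wHC_DG. Its log2 fold change was -1.29 ± 0.51 (adjusted p = 0.505), and its values in 2wEE_DG lie near or under the floor of 3 counts. Among seed families, 4 were above all home cage libraries (0.877% of 456), those of miR-132-5p, miR-22-3p, miR-21a-5p and miR-181b-1-3p. The 1 below all of them (0.219%) was that of miR-7006-3p, with 5.19 to 7.49 CPM in 2wEE_DG and 7.62 to 10.7 CPM in 2wHC_DG. Of these families that of miR-132-5p passed, and the others had edgeR adjusted p of 0.341 to 0.952.

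miR-21a-5p, an arm known for induction in growing and reactive cells and hosted in an exon of Vmp1, had 2851, 2864, 2711, 2798 and 2905 CPM in 2wEE_DG, against 1946, 2468 and 2748 CPM (lowest, median, highest) in 2wHC_DG. The enriched libraries were tightly grouped, and all but library 3 were above the home cage range. The log2 fold change was 0.22 ± 0.09 (adjusted p = 0.505). miR-181b-1-3p had 15.4 to 24.8 CPM in 2wEE_DG and 11.9 to 15.5 CPM in 2wHC_DG, a log2 fold change of 0.42 ± 0.15. miR-449c-5p, a miRNA of ciliated cells in an intron of Cdc20b, had the highest log2 fold change tested, 1.05 ± 0.38, on 2 to 13 counts a library. None of these passed.

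Of the 8 miRNAs with the smallest p among those lower in 2wEE_DG, none passed, and the adjusted p of the 7 other than miR-125a-5p was 0.505. miR-1264-3p, which sits in an intron of the serotonin receptor gene Htr2c, had 2.64, 4.08, 3.26, 5.23 and 1.91 CPM in 2wEE_DG, against 4.31, 6.22 and 9.26 CPM (lowest, median, highest) in 2wHC_DG. Its log2 fold change was -0.92 ± 0.32 on 2 to 24 counts a library, and against both home cage groups it was -1.10 and passed (adjusted p = 0.0365). The latter takes in a difference between the home cage groups, 0.36 ± 0.25 (log2, 10wHC_DG over 2wHC_DG), which did not pass. miR-652-3p, in an intron of Tmem164, had 277, 272, 298, 217 and 199 CPM in 2wEE_DG, against 280, 290 and 392 CPM in 2wHC_DG, and only enriched library 3 reached the home cage range. The log2 fold change was -0.29 ± 0.10. For miR-7a-2-3p, the lesser arm of a hairpin whose main arm miR-7a-5p is made from several loci, the log2 fold change was -0.32 ± 0.12. In 12 runs without 1 library it ran from -0.47 to -0.22. Only 1 of them passed, that without enriched library 1, at -0.47 with an adjusted p of 0.0308. miR-186-3p, in an intron of Zranb2, and miR-187-5p, the lesser arm of the dentate-high miR-187, had log2 fold changes of -0.84 ± 0.31 and -0.40 ± 0.15. miR-3085-3p, for which no role is given here, was at -0.32 ± 0.12. The main arm miR-187-3p had 1138 ± 120 CPM in 2wEE_DG and 1256 ± 259 CPM in 2wHC_DG (SD, n = 5 and 6), a log2 fold change of -0.14 ± 0.14.

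The most abundant miRNAs set the bulk of the counts, and none of the 8 highest passed the test. miR-127-3p, an imprinted miRNA made antisense to Rtl1, was the highest at 143744, 125643, 136579, 129604 and 140076 CPM in 2wEE_DG, against 113856, 130359 and 136563 CPM (lowest, median, highest) in 2wHC_DG. The groups overlapped, with a log2 fold change of 0.09 ± 0.09. After miR-22-3p and miR-125a-5p came miR-30a-5p (0.02 ± 0.07), miR-434-3p of the same imprinted cluster (-0.08 ± 0.11), miR-92b-3p, known in neural progenitors (-0.14 ± 0.10), miR-27b-3p (0.12 ± 0.06) and let-7i-5p (0.07 ± 0.16), all as log2 fold changes ± SE. The 95% interval of miR-127-3p, -0.08 to 0.26 on the log2 scale, is wide enough to hold the change of miR-22-3p.

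Comparing the 2 arms of a hairpin inside each library removes any effect of scaling. For 154 hairpins with both arms measured, the log2 ratio of the 3p to the 5p count was compared with limma, and 0 ratios passed (0%), with 3 higher (1.95%) and 3 lower (1.95%) at an unadjusted p under 0.05. For miR-132 the log2 ratio was 2.84, 3.08, 3.01, 3.16 and 3.10 in 2wEE_DG, against 2.86, 3.01 and 3.36 (lowest, median, highest) in 2wHC_DG. The groups overlapped throughout, and the difference was -0.01 ± 0.10 (limma adjusted p = 0.986). For miR-212 the log2 ratio was 0.31, 0.25, 0.31, 0.70 and 0.93 in 2wEE_DG, against 0.01, 0.23 and 0.37 in 2wHC_DG. Enriched libraries 4 and 5 were above all home cage libraries, and the difference was 0.29 ± 0.12 (limma adjusted p = 0.538).

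The smallest limma p in each direction belonged to miR-7b and miR-409 among ratios that were higher, and to miR-186 and miR-190a among those that were lower. The differences were 0.84 ± 0.32 for miR-7b, 0.42 ± 0.16 for miR-409, -0.95 ± 0.29 for miR-186 and -0.87 ± 0.33 for miR-190a, with adjusted p from 0.379 to 0.534. The lesser arm of miR-186 had 3 to 26 counts a library, so its ratio rests on few reads. For miR-125a the ratio had a difference of 0.35 ± 0.20 and for miR-22 of 0.11 ± 0.18.

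Lists of miRNAs were described by how their tested members moved, beside the 525 miRNAs as a whole, of which 48% had a log2 fold change above 0 with a median of -0.01. Of the 4 arms of the cluster of miR-132 and miR-212 all were positive, with a median of 0.55 and 3 called, which restates the single results above, since the cluster was chosen with those results known. The other 15 lists, that of synaptic plasticity included, were drawn up without these 4 arms. So none of them could hold 1 of the 3 calls, and no member of them was called at an adjusted p under 0.05. Among 27 tested of 30 miRNAs with a described role in synaptic plasticity, 7 were positive and the median was -0.06. The members at an unadjusted p under 0.05 were miR-22-3p and miR-381-3p on the higher side (0.23 ± 0.08 and 0.22 ± 0.11) and miR-125b-5p and miR-501-3p on the lower (-0.27 ± 0.10 and -0.28 ± 0.12). miR-134-5p and miR-138-5p, known in rat neurons for limiting spine size, were at -0.02 ± 0.14 and -0.05 ± 0.10.

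Adult neurogenesis continues in the dentate gyrus, and of 24 tested of 28 miRNAs linked to it 9 were positive, with a median of -0.03. miR-137-3p, miR-184-3p and let-7b-5p, each known to act in adult neural progenitors of the mouse, had log2 fold changes of -0.05 ± 0.10, 0.24 ± 0.19 and -0.00 ± 0.11. The list of proliferation-linked miRNAs, from miR-17-92 and related clusters, had 14 of 20 tested, 6 positive and a median of -0.03. The neuron-enriched list had 17 of 21 tested, 6 positive and a median of -0.05. Its member with the smallest p was miR-330-3p, at 394 ± 13.7 CPM in 2wEE_DG and 448 ± 34.5 CPM in 2wHC_DG (SD, n = 5 and 6; log2 fold change -0.19 ± 0.08, adjusted p = 0.624). The 6 tested of 8 dentate-high miRNAs had 2 positive and a median of -0.03.

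The imprinted Dlk1-Dio3 cluster of chromosome 12, the largest list, had 85 of 106 miRNAs tested, 46 positive and a median of 0.04. Its lead member, miR-299a-3p, had 14.5, 16.3, 20.0, 16.4 and 21.0 CPM in 2wEE_DG, against 12.4, 13.2 and 14.7 CPM (lowest, median, highest) in 2wHC_DG. All but enriched library 1 lay above the home cage range, and the log2 fold change was 0.38 ± 0.17 (adjusted p = 0.739). The summed level of the cluster was 220090 to 245332 CPM in 2wEE_DG and 175710 to 246317 CPM in 2wHC_DG. Such sums, here and below, are shares of the library total without TMM factors. The 11 tested members of the miR-125, miR-99 and miR-100 families had 5 positive and a median of -0.01, with miR-99a-5p at -0.17 ± 0.09 and miR-100-5p at -0.14 ± 0.11.

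The let-7 family, which limits proliferation in many tissues, had 4 of 9 tested members positive and a median of -0.00. Its level varied more within each group than between them. let-7e-5p had 3839, 4840, 4349, 9452 and 7844 CPM in 2wEE_DG, against 3796, 6692 and 7766 CPM (lowest, median, highest) in 2wHC_DG. The high enriched libraries 4 and 5 were the 2 shallowest of the group. The raw count of let-7e-5p stayed between 8208 and 13274 in all 11 libraries while their totals ran from 1117213 to 3159957. let-7a-5p, with only 48 to 106 counts, had a log2 fold change of 0.17 ± 0.21. The part of depth in these levels was not tested.

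**Figure D4:**
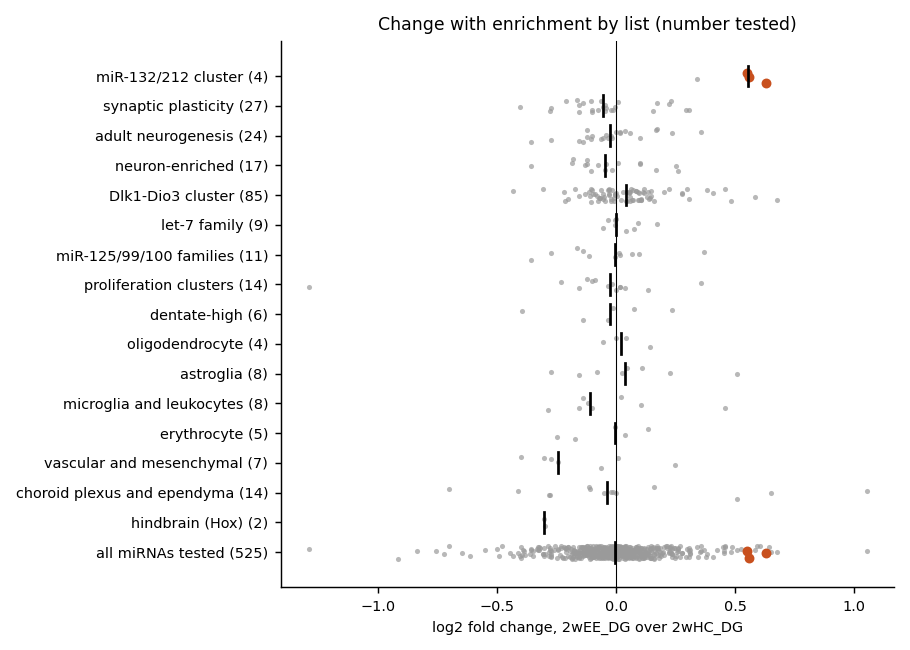
Log2 fold change of 2wEE_DG over 2wHC_DG (x axis) for every tested member of each list (grey; called members orange; number tested in brackets), with the median as a black bar. The cluster of miR-132 and miR-212, chosen with its results known, has its median at 0.55, and all 525 miRNAs have theirs at -0.01. The lowest medians are those of the microglia (-0.11), vascular (-0.25) and Hox (-0.30, from 2 miRNAs) lists. The remaining lists have theirs between -0.06 and 0.04.

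Markers of other cell types were set beside these results, and their part in the result for miR-132 and miR-212 was not tested. None of their tested members passed. Oligodendrocyte markers summed to 2253 to 2569 CPM in 2wEE_DG and 2016 to 2618 CPM in 2wHC_DG, with miR-219a-5p at 0 in all 11 and miR-219a-2-3p at 0.14 ± 0.19. A miRNA at 0, here and below, need not be absent, since reads aligned to several places entered no count. Microglia and leukocyte markers summed to 4580 to 4997 CPM in 2wEE_DG and 4482 to 5578 CPM in 2wHC_DG, with 3 of 8 tested positive and a median of -0.11. Choroid plexus and ependyma markers summed to 15487 to 18442 CPM in 2wEE_DG and 15659 to 21602 CPM in 2wHC_DG, with 4 of 14 tested positive and a median of -0.04. Erythrocyte markers summed to 185 to 298 CPM in 2wEE_DG and 182 to 303 CPM in 2wHC_DG, a measure of the blood left in the tissue. Each of these summed levels overlapped between the groups.

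Vascular and mesenchymal markers were uneven between libraries. They summed to 17397 to 35906 CPM in 2wEE_DG and 14689 to 59338 CPM in 2wHC_DG, with 2 of 7 tested positive and a median of -0.25, and miR-199a-3p and miR-126a-5p at 0 in all 11. miR-143-3p, a miRNA of smooth muscle and vessel walls, made up most of that sum. Its own values carry TMM factors, which the sums lack, so they can exceed the sums. It was at 15189, 32927, 14511, 22690 and 25274 CPM in 2wEE_DG, against 12210, 17617 and 64634 CPM (lowest, median, highest) in 2wHC_DG. The highest was library 6, the one apart on the second component. Without it the log2 fold change of miR-143-3p was 0.20, against -0.27 ± 0.47 with all libraries. The astroglia list, which also holds miR-143-3p, summed to 18069 to 36168 CPM in 2wEE_DG and 14896 to 58574 CPM in 2wHC_DG, with 5 of 8 positive and a median of 0.03. The 2 tested Hox-cluster miRNAs, miR-10a-5p and miR-10b-5p, stood at -0.30 ± 0.26 and -0.30 ± 0.85, with miR-10a-5p at 85.2 to 198 CPM in 2wEE_DG and 128 to 228 CPM in 2wHC_DG. Without library 6 of 2wHC_DG the same 3 miRNAs were called as with it.

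Whether the response at 2 weeks differed from that at 10 weeks was tested as the difference of the 2 enrichment effects in the dentate gyrus. It passed for 0 of 525 miRNAs (0%), with 9 higher (1.71%) and 12 lower (2.29%) at an unadjusted p under 0.05, and for 0 with DESeq2 or limma-voom. For miR-132-3p the effect at 10 weeks was 0.33 ± 0.09, with 3761 ± 379 CPM in 10wEE_DG and 3000 ± 208 CPM in 10wHC_DG (SD, n = 8 and 6), and the difference, 2 weeks minus 10 weeks, was 0.23 ± 0.14. For miR-132-5p, miR-212-3p and miR-212-5p the effects at 10 weeks were 0.22 ± 0.09, 0.29 ± 0.11 and 0.40 ± 0.09, and the differences 0.33 ± 0.13, 0.34 ± 0.17 and -0.07 ± 0.14. At 10 weeks miR-212-5p passed (edgeR adjusted p = 0.0421), and miR-132-3p (0.308), miR-132-5p (0.709) and miR-212-3p (0.709) did not. None of these 4 differences passed (edgeR adjusted p = 0.994 each). The smallest p belonged to miR-363-3p (-1.97 ± 0.61) and to miR-486-5p, an erythrocyte miRNA (-0.84 ± 0.27), both at an edgeR adjusted p of 0.846, as was miR-125a-5p with -0.37 ± 0.12.

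The same question between regions at 2 weeks gave 0 of 593 miRNAs (0%), with 6 higher (1.01%) and 11 lower (1.85%) at an unadjusted p under 0.05, and 0 with DESeq2 or limma-voom. Whether DG and CA libraries share animals is not in the labels, so the fit treated all libraries as separate. In CA the effect was 0.34 ± 0.08 for miR-132-3p, 0.20 ± 0.08 for miR-132-5p, 0.46 ± 0.14 for miR-212-3p and 0.25 ± 0.09 for miR-212-5p. The differences, DG minus CA, were 0.19 ± 0.14, 0.33 ± 0.13, 0.15 ± 0.21 and 0.06 ± 0.14, with an edgeR adjusted p of 0.999 each. Library 3 of 10wEE_CA, which is in the CA fit, had only 480792 miRNA counts. Leaving out that library, an alternative chosen after seeing the data, left the CA effects nearly as they were, at 0.33, 0.19, 0.45 and 0.24 in the same order, and lowered their SE. The edgeR adjusted p in CA was then 0.00132 for miR-132-3p, against 0.15 with that library, and 5.65e-05 for miR-212-3p, against 0.422, while both 5p arms did not pass either way. In both cases the count of regional differences was 0 either way. The smallest p for a regional difference belonged to miR-449c-5p (1.43 ± 0.51) and miR-186-3p (-0.97 ± 0.35).

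**Figure D5:**
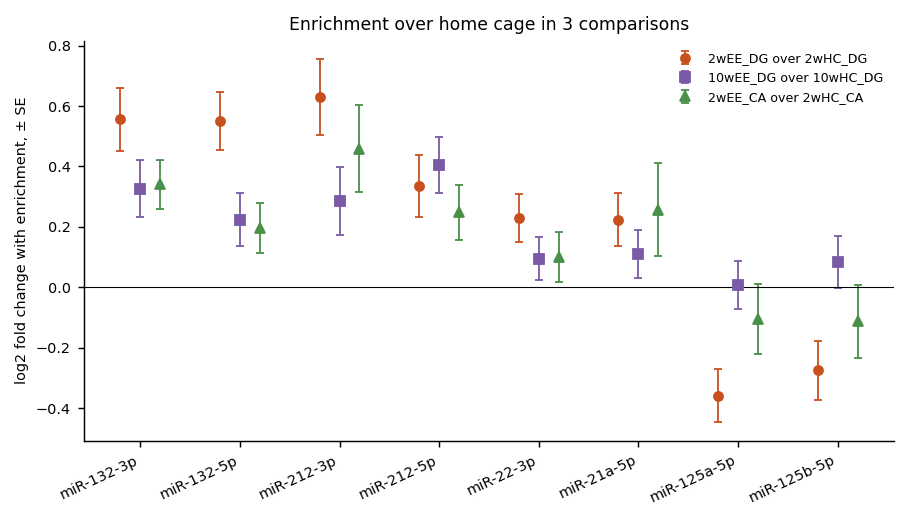
Log2 fold change with enrichment, ± SE (y axis), for 8 miRNAs in the dentate gyrus at 2 weeks (orange), the dentate gyrus at 10 weeks (purple) and CA at 2 weeks (green), the last with library 3 of 10wEE_CA in the fit. The 4 arms of the cluster are positive in each comparison, and miR-125a-5p lies at -0.36, 0.01 and -0.11.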

How the data were processed

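Small RNA libraries were made from 1 µg of total RNA, per the labels' protocols. Read counts for 1900 mature miRNAs were deposited by the authors, per file, with no normalization. The submitters' processing notes name CASAVA 1.8.2, cutadapt, STAR, HTSeq and mm10. For cutadapt, STAR and HTSeq no version, and for the miRNAs no annotation release, is stated there. The 5 closing rows of unassigned reads were dropped: miRNAs held 31.9% of reads in 2wEE_DG and 31.2% in 2wHC_DG, and reads aligned to several places 63.8% and 64.4%. Groups come from the labels, which give no batch.

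edgeR 4.0.16 (R 4.3.3) was fitted to the 25 DG libraries by group, with TMM scaling, its default filter on low counts, the quasi-likelihood test and Benjamini-Hochberg adjustment, and a threshold of 0.05. Counts were also summed by seed. Ratios of the 3p to the 5p arm were tested with limma 3.58.1 where both arms were measured, with a pseudocount of 1. Regional differences used all 52 libraries. DESeq2 1.42.0 and limma-voom were alternatives, with other scalings and filters, other samples and each library left out. Library totals and shares were compared by exact permutation, for which 5 against 6 libraries allow no p below 0.00433. No replicate libraries were identical. In simulated counts of this comparison, on 520 miRNAs, 16.4% of changes of 1.25-fold, 73.1% of 1.5-fold and 89.4% of 2-fold were called, and 0.625% of unchanged miRNAs. In that simulation 200 miRNAs were changed, against 3 called in the data. So many changes ease the Benjamini-Hochberg cutoff, so these shares can be higher than those for the data.

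Named are the 8 miRNAs with the smallest p in each direction, the 8 most abundant, all arms of miR-132 or miR-212 the lead member of each list, and the 2 smallest p of each difference of effects and, by direction, of seed families and arm ratios; miR-99b-5p, let-7e-5p, miR-187-3p, miR-143-3p and the other list members given were chosen after their values were seen. Members and lists were chosen with earlier results of these data known. Sequences are from RefSeq on GRCm38.p6.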

Additional observations from a re-analysis of the deposited data

Results flagged for a closer look

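Of 76 groups of values checked for a library far from the others, 2 were picked out, where chance gives about 1 in 20. miR-181b-1-3p was at 11.9 CPM in library 4 of 2wHC_DG, below the other 5 libraries at 14.2 to 15.5 CPM. miR-652-3p was at 392 CPM in library 6 of 2wHC_DG, above the other 5 at 280 to 317 CPM. Library 6 is also the one apart on the second principal component.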

How the results depend on the processing

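Fitted on the 11 libraries alone, 1 miRNA was higher, against 3 in the reported fit, and 1 seed family was higher (miR-132-5p's; AACAGUC was lost) and 0 lower. With the home cage at 2 and 10 weeks as reference, 6 miRNAs were higher and 2 lower, and 5 seed families higher and 2 lower, those of miR-1264-3p and miR-652-3p and not CCCUGAG. Of the 2 lower miRNAs, miR-221-3p had a log2 fold change of -0.42 with that reference (edgeR adjusted p = 0.00826). Against 2wHC_DG alone it was at -0.01 ± 0.10. DESeq2, a mean of at least 10 CPM, single-hairpin miRNAs and the depth covariate each gave 1 miRNA lower, miR-125a-5p. The lower seed family was lost (0) with DESeq2's size factors, voom, a mean of at least 10 CPM and the replicate block. The replicate block gave 3 miRNAs higher and 0 lower, but the labels do not say whether the numbers pair the libraries. Same-numbered pairs correlated at -0.317 to 0.342 and other pairs at -0.454 to 0.461, which cannot settle it. Leaving out 1 library gave 0 to 3 miRNAs higher, the 0 only in the 11-library fit without library 5 of 2wEE_DG, chosen after seeing the data, and 0 to 1 lower; seed families were 2 higher throughout and 0 to 1 lower. Signs turned with both home cages for miR-30a-5p (-0.038), miR-92b-3p (0.22), miR-99b-5p (0.0081) and let-7e-5p (0.038). Without 1 library they turned for miR-30a-5p (-0.029 to 0.068), let-7e-5p (-0.23 to 0.10), let-7i-5p (-0.023 to 0.19), let-7a-5p (-0.0067 to 0.28), miR-143-3p (-0.47 to 0.20), the arm ratios of miR-132 (-0.045 to 0.057) and miR-22 (-0.040 to 0.23), the difference in library totals (-209433 to 191596 counts) and in miRNAs with at least 10 counts (-8.92 to 12.8). The causes were not tested. Arm ratios and both differences of effects gave 0 calls in every alternative run. Depth limits miRNAs of a few counts, such as miR-363-3p.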
